A study of Mus musculus with 6 samples.

Results

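Pcp4l1, Rasgrp4 and Lrrc3b are genes whose level in mouse olfactory epithelium was lower on the side of a closed nostril, and they were followed here beside 5 paralogs, Pcp4, Rasgrp1, Rasgrp2, Rasgrp3 and Lrrc3. A gene was taken from the probe set that the platform annotation pairs with exactly 1 symbol, keeping the one with the highest mean over the 6 arrays. Each of the 8 genes had 1 such probe set, out of 14860 genes measured in this way. The 3 named genes were picked because their difference between the sides was already known from these arrays, so their differences are described and not tested. The paralogs were picked for their families and were tested in the fit over all probe sets.

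Total RNA of olfactory epithelium came from 3 C57Bl/6 mice, 5 days after unilateral naris occlusion, which closes a single nostril. The groups were the occluded (ipsilateral) side, with 3 arrays, and the contralateral side, with 3 arrays, on Affymetrix Mouse Exon 1.0 ST arrays that average probes over the exons of a gene. Per the labels, occlusion decreases stimulation by odours on its own side and increases it on the other, so both sides came from operated animals and neither was an untreated reference. No label ties an array to a mouse, so the tests rest on the spread between arrays, which may be technical in part, and 3 arrays a side set the precision.

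The RMA values are on the log2 scale, where a difference of 1 is a doubling. The defining markers of the tissue were high, with a mean of 13.61 for Omp, which marks mature olfactory neurons, and 13.43 for Cyp2g1, a cytochrome P450 of supporting cells, beside a median of 6.10 over 20 genes not expected in nasal tissue. Occluded replicate 1 stood apart, with correlations of 0.977 to 0.983 with the other arrays across probe sets, against 0.986 to 0.989 among the other 5. It also had the highest array median, 8.12, and contralateral replicate 2 the lowest, 7.94. The differences of the 8 genes, the gaps to their paralogs and the medians of the gene lists are therefore given with and without occluded replicate 1.

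Odorant binding in these neurons opens cyclic nucleotide-gated channels, and calcium entering the cell is read by calmodulin and by calcium-regulated enzymes. Pcp4, also called PEP-19, is a small protein that binds calmodulin through an IQ motif and alters how calmodulin takes up and releases calcium. Pcp4l1 is its close homolog, but whether it shares that binding was not measured here. The RasGRP proteins are guanine nucleotide exchange factors that load small GTPases of the Ras and Rap families with GTP, and they respond to diacylglycerol and calcium. Rasgrp1 is best known from T cells, Rasgrp2 from platelets, Rasgrp3 from B cells and endothelium, and Rasgrp4 from mast cells. Lrrc3b and Lrrc3 are transmembrane proteins with leucine-rich repeats outside the cell.

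The promoter windows of both short families are shown to set each named gene beside its paralog. Each runs from 250 bases before to 50 bases after the RefSeq start of the gene in build GRCm38.p6, on the strand of the gene, 5′ to 3′. They lie at chr1:171196219-171196518 (minus strand) for Pcp4l1, chr16:96467356-96467655 (plus strand) for Pcp4, chr14:15438938-15439237 (minus strand) for Lrrc3b and chr10:77902487-77902786 (minus strand) for Lrrc3. Capitals mark matches to 4 motifs searched on both strands, the TATA box (TATAAA), the CCAAT box (CCAAT), the core of the cyclic AMP response element (TGACG) and the AP-1 site (TGANTCA).
Pcp4l1: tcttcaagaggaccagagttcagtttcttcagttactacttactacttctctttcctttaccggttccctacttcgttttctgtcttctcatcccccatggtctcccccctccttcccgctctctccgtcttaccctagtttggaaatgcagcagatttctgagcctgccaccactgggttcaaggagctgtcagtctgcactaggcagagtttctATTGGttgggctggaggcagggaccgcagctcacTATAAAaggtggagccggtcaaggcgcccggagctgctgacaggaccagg
Pcp4: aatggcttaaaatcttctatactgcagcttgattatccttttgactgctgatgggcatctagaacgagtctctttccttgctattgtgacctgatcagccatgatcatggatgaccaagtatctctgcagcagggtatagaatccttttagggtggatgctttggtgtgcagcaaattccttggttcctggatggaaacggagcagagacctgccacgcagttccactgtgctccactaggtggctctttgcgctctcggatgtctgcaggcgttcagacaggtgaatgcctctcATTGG
Lrrc3b: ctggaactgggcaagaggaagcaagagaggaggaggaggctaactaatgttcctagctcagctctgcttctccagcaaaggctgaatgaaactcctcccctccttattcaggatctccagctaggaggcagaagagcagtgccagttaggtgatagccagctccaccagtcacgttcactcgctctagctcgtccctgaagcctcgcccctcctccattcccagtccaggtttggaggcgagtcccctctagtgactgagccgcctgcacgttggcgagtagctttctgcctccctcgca
Lrrc3: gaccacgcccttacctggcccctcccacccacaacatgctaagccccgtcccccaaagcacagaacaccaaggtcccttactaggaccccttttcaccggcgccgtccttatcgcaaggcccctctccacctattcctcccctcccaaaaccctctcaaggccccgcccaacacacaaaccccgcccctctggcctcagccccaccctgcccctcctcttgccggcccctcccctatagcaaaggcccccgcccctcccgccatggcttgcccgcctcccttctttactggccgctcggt

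In the Pcp4l1 window the CCAAT box, on the opposite strand, took bases 217 to 221 and the TATA box bases 251 to 256, counted from 1 at the 5′ end. The Pcp4 window held a CCAAT box on the opposite strand at its very end, bases 296 to 300, and neither Lrrc3b nor Lrrc3 held any of the 4 motifs. Of 32851 RefSeq windows of the same length, 13.6% held the TATA box, 37.4% the CCAAT box, 20.8% the TGACG core and 7.81% the AP-1 site. A match is a run of letters and not a known binding site. The windows also differed in base composition, with a G and C content of 53.3% in Pcp4l1 and 48.7% in Pcp4, and of 57% in Lrrc3b and 65.7% in Lrrc3, against a median of 52.7% over all windows. Windows were found for 7 of the 8 genes. Those of Rasgrp1, Rasgrp2 and Rasgrp3 held no match except a TATA box on the opposite strand in 1 Rasgrp3 window.

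Pcp4l1, the IQ motif homolog of Pcp4, had values on the occluded side of 9.99, 9.52 and 9.62 in replicates 1 to 3, and on the contralateral side of 10.75, 10.36 and 10.77. Every occluded array lay below every contralateral one, as in 3.24% of all probe sets, and occluded replicate 1 came nearest to the other side. The difference, occluded minus contralateral, was -0.92 (SE 0.17), a level 1.89-fold lower with a 95% interval of 1.43 to 2.49. Without occluded replicate 1 it was -1.06.

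Pcp4, the calmodulin-binding protein PEP-19, lay the other way. Its values were 8.25, 8.51 and 8.26 on the occluded side and 7.99, 8.10 and 7.99 on the contralateral side, so that all occluded arrays lay above all contralateral ones. That was also so for 7.49% of all probe sets. The difference was 0.32 (SE 0.10, 95% interval 0.07 to 0.57), and it did not pass the test, with a limma adjusted p over all probe sets of 0.823 (0.592 to 1.00 over the alternatives). It was 0.24 with arrays centred on their medians, and 0.36 without occluded replicate 1.

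**Figure D1:**
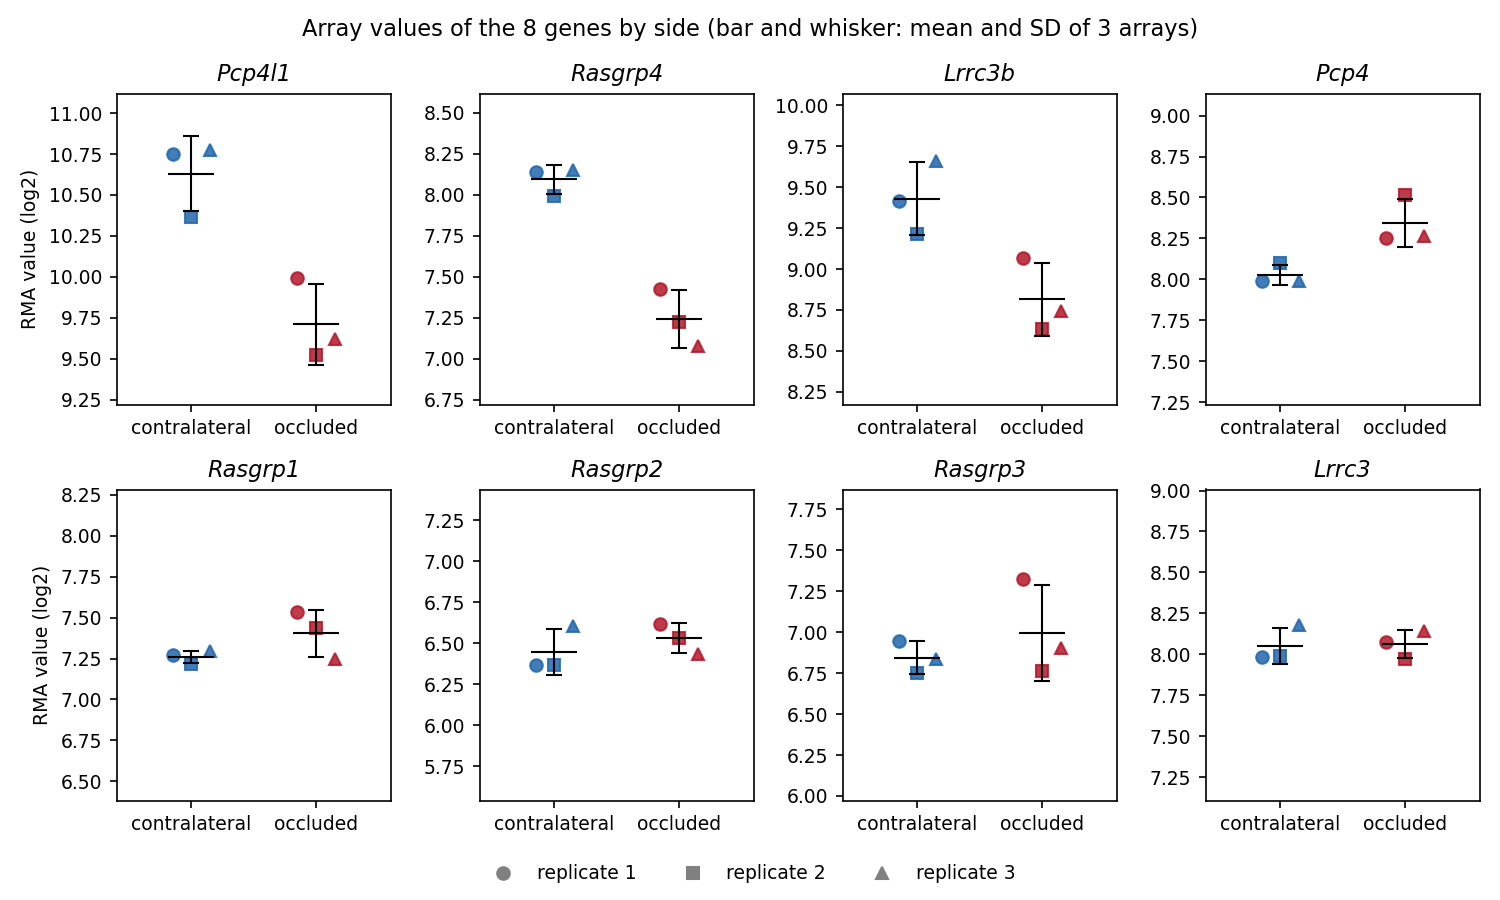
RMA values (log2, vertical axis) of the 8 genes in each array, by side, each panel spanning the same height in log2 units; symbols are replicates, and bar and whisker are the mean and SD of 3 arrays. The sides do not overlap for Pcp4l1, Rasgrp4 and Lrrc3b, lower on the occluded side, and for Pcp4, higher there, while they overlap for the other 4 genes.

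Rasgrp4, the exchange factor of the family known from mast cells, had values of 7.43, 7.23 and 7.08 on the occluded side and of 8.14, 7.99 and 8.15 on the contralateral side. The gap between the highest occluded and the lowest contralateral array was the widest of the 3 named genes. The difference was -0.85 (SE 0.12), a level 1.81-fold lower with a 95% interval of 1.49 to 2.19, and -0.94 without occluded replicate 1.

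The other RasGRP genes had differences above 0, none of which passed the test. Their mean levels, 7.33 for Rasgrp1, 6.49 for Rasgrp2 and 6.92 for Rasgrp3, were low. They lay within the range of the genes not expected in nasal tissue, such as Apoa2 at 7.78, as did Rasgrp4 at 7.67. At such levels a decrease may not show. Rasgrp1, the RasGRP of T cell receptor signalling, had 7.53, 7.43 and 7.24 on the occluded side and 7.27, 7.22 and 7.29 on the contralateral side. Its sides overlapped through occluded replicate 3, and the difference was 0.14 (SE 0.10, 95% interval -0.10 to 0.39, limma adjusted p 0.823). It was 0.079 without occluded replicate 1 and 0.22 without occluded replicate 3. Rasgrp2, which activates Rap1 in platelets, had 6.62, 6.53 and 6.44 on the occluded side and 6.37, 6.37 and 6.61 on the contralateral side. These values overlapped over most of their range, with a difference of 0.08 (SE 0.11, 95% interval -0.17 to 0.34, limma adjusted p 0.864). Leaving out single arrays moved it from 0.039, without occluded replicate 1, to 0.16, without contralateral replicate 3, and it was 0.0047 with arrays centred on their medians.

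Rasgrp3, a RasGRP of B cells and blood vessels, had 7.33, 6.76 and 6.91 on the occluded side and 6.95, 6.75 and 6.83 on the contralateral side. Only occluded replicate 1 lay clear of the contralateral range. The difference was 0.15 (SE 0.16, 95% interval -0.22 to 0.53, limma adjusted p 0.844), and without occluded replicate 1 its sign turned, to -0.01. In that array the endothelial markers were also highest, with a mean of 8.47 over 12 genes against 7.79 to 8.12 in the other 5. The same held for the macrophage markers, at 8.52, and occluded replicate 1 was highest of its side in 57.0% of all probe sets. B cell markers were instead highest in contralateral replicate 3, at 6.46, against 6.36 in occluded replicate 1. The part of any of these cells in the Rasgrp3 value was not tested.

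Lrrc3b, the leucine-rich repeat protein, had values of 9.06, 8.63 and 8.75 on the occluded side and of 9.41, 9.21 and 9.66 on the contralateral side. The sides did not overlap, but occluded replicate 1 and contralateral replicate 2 were only 0.15 apart. The difference was -0.62 (SE 0.16), a level 1.53-fold lower with a 95% interval of 1.175 to 1.997, and it was -0.74 without occluded replicate 1.

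Lrrc3, its paralog, had 8.08, 7.97 and 8.14 on the occluded side and 7.99, 7.99 and 8.18 on the contralateral side, so the sides overlapped. Its difference was 0.01 (SE 0.10, limma adjusted p 0.984), with a 95% interval of -0.23 to 0.25 that bounds any difference in these arrays but does not show that there was none. It was 0.0029 without occluded replicate 1, and it fell below 0 under each of 3 other scalings and without any one of 3 of the arrays.

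The 3.24% of the 23332 probe sets with all occluded arrays below all contralateral ones is the background for the 3 named genes, but nothing is read from it, since they were chosen on this contrast. In order from the most negative difference, Pcp4l1 stood at place 26, Rasgrp4 at 40 and Lrrc3b at 114. None of the 5 paralogs passed the test, and limma called 0% of all probe sets at an adjusted p of 0.05, with 1233, or 5.28%, at an unadjusted p under that threshold.

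**Figure D2:**
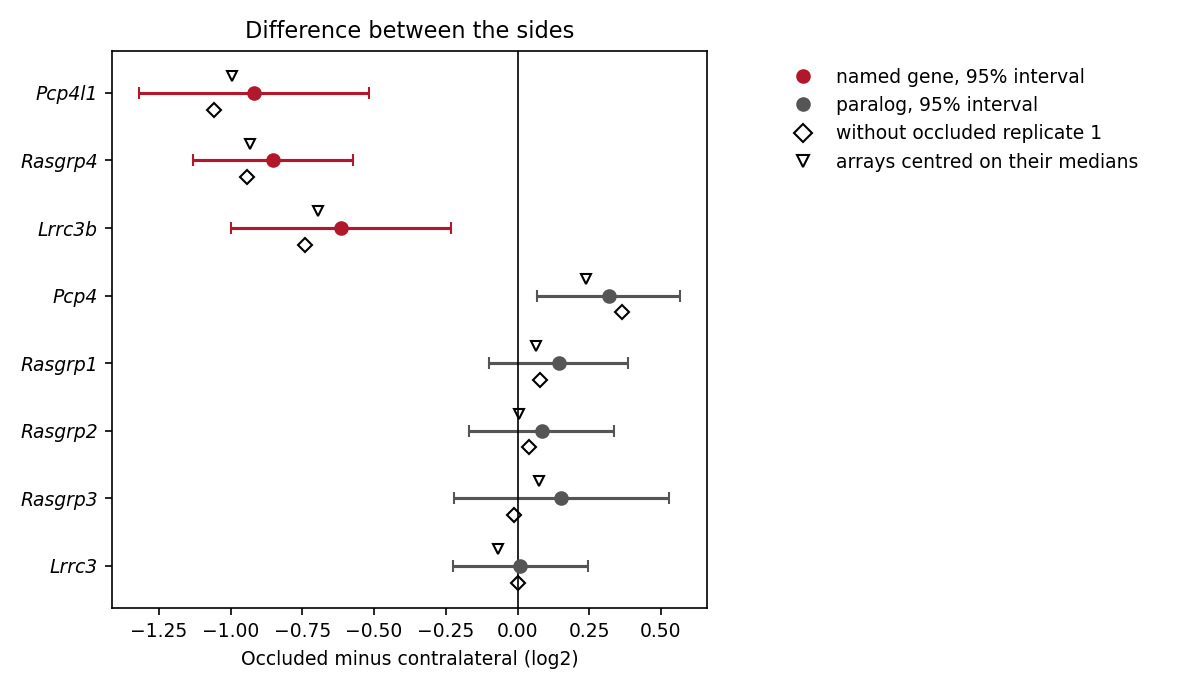
Difference between the sides (horizontal axis, occluded minus contralateral, log2) for each gene with its 95% interval, red for the named genes and grey for the paralogs; diamonds leave out occluded replicate 1 and triangles centre each array on its median. The named genes lie between -0.92 and -0.62, and the paralogs between 0.01 and 0.32.

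To set each named gene against its family, the log2 value of the paralog was subtracted within each array, which removes any shift common to an array, and the sides were then compared. The distance between Pcp4l1 and Pcp4 was 1.74, 1.01 and 1.36 on the occluded side and 2.76, 2.27 and 2.78 on the contralateral side. It was thus smaller in every occluded array, by a gap of -1.23 (SE 0.27, 95% interval -1.98 to -0.49), or -1.42 without occluded replicate 1. Such a distance joins probe sets of unequal brightness, so its size within a side has no meaning, and only the change between the sides is read. The SEs and intervals of the gaps come from the pooled SD of the sides and not from limma.

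The distance between Rasgrp4 and the mean of Rasgrp1, Rasgrp2 and Rasgrp3 was the steadiest. It was 0.27, 0.32 and 0.21 on the occluded side and 1.28, 1.21 and 1.24 on the contralateral side, a gap of -0.98 (SE 0.04, 95% interval -1.08 to -0.88), and again of -0.98 without occluded replicate 1. The arrays of a side differed less in this distance, with a pooled SD of 0.043, than in the value of Rasgrp4 itself, with SDs of 0.18 on the occluded and 0.09 on the contralateral side. Against Rasgrp1, Rasgrp2 and Rasgrp3 singly the gap was -0.995, -0.936 and -1.005, with larger pooled SDs of 0.052, 0.104 and 0.143. For Lrrc3b against Lrrc3 the distance was 0.99, 0.66 and 0.61 on the occluded side and 1.43, 1.22 and 1.48 on the contralateral side. That gap was -0.63 (SE 0.14, 95% interval -1.02 to -0.23), or -0.74 without occluded replicate 1. Its pooled SD was 0.175, against SDs of Lrrc3b itself of 0.22 on either side. For Pcp4l1 against Pcp4 subtraction instead raised the spread, to a pooled SD of 0.33. The SDs of Pcp4l1 itself were 0.25 on the occluded and 0.23 on the contralateral side. These gaps carry no test, since the named gene of each was chosen for its difference. The paralogs of Rasgrp4 lay at levels of genes not expected in nasal tissue, where a decrease of their own may not show.

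**Figure D3:**
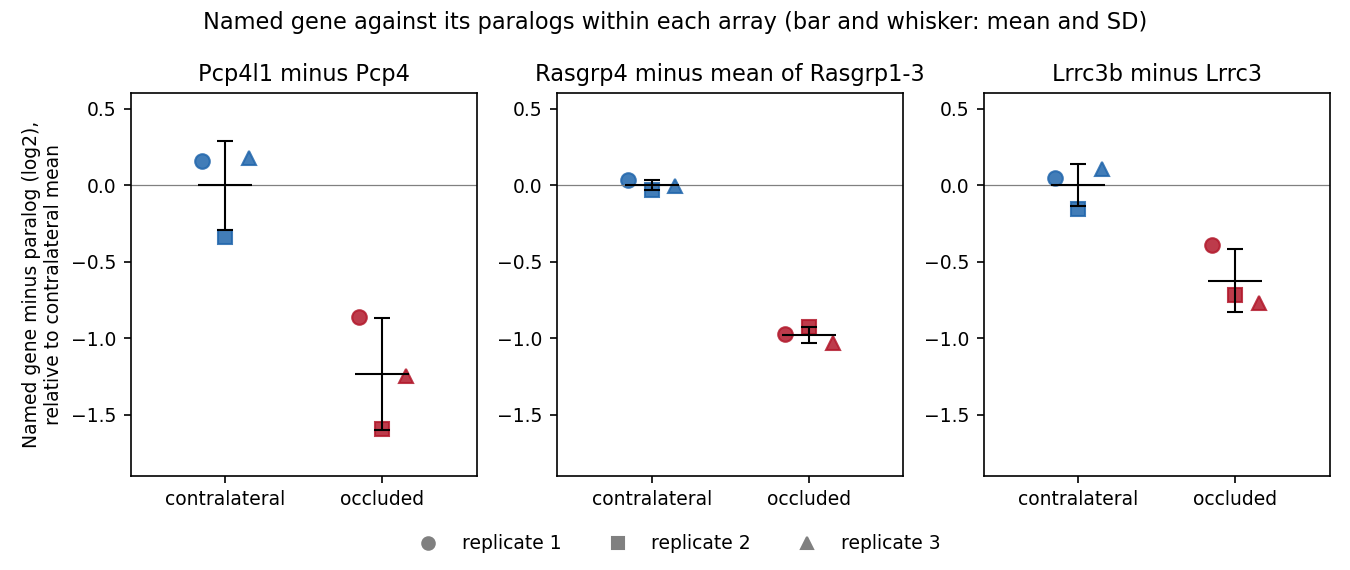
Log2 value of each named gene minus that of its paralog, or of the mean of 3 paralogs for Rasgrp4, in each array, drawn relative to the mean of the contralateral arrays (vertical axis, log2); symbols are replicates, bar and whisker the mean and SD of a side. The sides do not overlap in any of the 3 panels, and the Rasgrp4 panel has the least spread within a side.

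The 3 named genes shared part of the order of the arrays within a side. Their lowest occluded array differed, being replicate 2 for Pcp4l1 and Lrrc3b and replicate 3 for Rasgrp4. Occluded replicate 1 was the highest occluded array and contralateral replicate 2 the lowest contralateral array for each of them, as for 32.8% of all probe sets. Their correlations over the 6 arrays were 0.977 between Pcp4l1 and Lrrc3b, 0.973 between Pcp4l1 and Rasgrp4 and 0.930 between Rasgrp4 and Lrrc3b. The arrays fall into 2 sides and all 3 genes were chosen to differ between them, so the side itself is part of each correlation. Among the paralogs, Rasgrp1 and Rasgrp3 also had occluded replicate 1 highest and contralateral replicate 2 lowest of their sides. Pcp4 went the other way, with occluded replicate 1 its lowest occluded array and contralateral replicate 2 its highest contralateral one. The share of all probe sets with that reverse pattern was not counted. Rasgrp2 and Lrrc3 had neither pattern in full.

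The genes most like each named gene were sought by Pearson correlation over the 6 arrays, among genes at or above the median level and with an SD over the arrays of at least 0.2. Rasgrp4 itself lay under that level and could not be returned. The SD was taken over both sides, so a gene can pass it through its difference between the sides alone. Gpr158, for example, had SDs of 0.08 within the occluded and 0.05 within the contralateral side. The side is thus part of each correlation here too, and the lists are a description only. Out of 1806 genes compared (1807 for Rasgrp4), those nearest to Pcp4l1 were S100a5 (0.980), Lrrc3b (0.977), Trim45 (0.974), Syt4 (0.951) and Gpr158 (0.950). S100a5, which binds calcium in mature olfactory neurons, was at 10.17 ± 0.25 (SD, n = 3) on the occluded and 12.01 ± 0.22 (SD, n = 3) on the contralateral side. It was also nearest to Rasgrp4, at 0.993, followed by Pcp4l1 (0.973), Gpr158 (0.968), Slc17a6 (0.941), the vesicular glutamate transporter of these neurons, and the odorant receptor gene Olfr1325 (0.936).

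Trim45, a ubiquitin ligase of the tripartite motif family, was nearest to Lrrc3b, at a correlation of 0.996. Its mean was 9.30 ± 0.11 (SD, n = 3) on the occluded and 9.69 ± 0.14 (SD, n = 3) on the contralateral side. Next to Lrrc3b came Pcp4l1 (0.977), Sprr3 (0.974), a proline-rich protein of stratified epithelia, S100a5 (0.941) and Syt4 (0.916), a synaptotagmin. The differences of Trim45, Syt4, Gpr158 and Sprr3 were -0.38, -0.42, -0.37 and -0.37, each smaller in size than those of the 3 named genes.

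The genes listed for these pathways are given beside the whole table, of which limma called 0%. Among 18 measured regulators of Ras and Rap, 0 passed the limma test over all probe sets in either direction, 13 lay above 0 and 5 below, and the median difference was 0.05, beside 0.06 over all probe sets. The exchange factor Sos1 was at -0.02 (SE 0.11), and the calcium-regulated exchange factors Rasgrf1 and Rasgrf2 were at -0.02 (SE 0.08) and 0.05 (SE 0.08). The GTPase-activating proteins Nf1 and Rasa1, which switch Ras off, were at 0.05 (SE 0.10) and -0.16 (SE 0.14). The lowest difference of that list was that of Rasa1, and the highest that of Rasa3, at 0.39.

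Downstream, 0 of 19 measured genes of the cascade from Ras to ERK passed in either direction, with 15 above 0 and a median of 0.09. The GTPases Nras and Rap1a were at -0.06 (SE 0.09) and 0.08 (SE 0.09), and the kinase Map2k1 at 0.02 (SE 0.11). The median of that list was -0.02 without occluded replicate 1 and 0.19 without occluded replicate 2. Enzymes that make diacylglycerol, remove it or respond to it also gave 0 of 19, with 16 above 0 and a median of 0.08. Among them the phospholipases Plcb4 and Plcg1 were at 0.07 (SE 0.23) and 0.08 (SE 0.11), and the diacylglycerol kinase Dgkz at 0.21 (SE 0.12).

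Around Pcp4l1, 0 of 25 measured calmodulin-linked genes passed in either direction, with 20 above 0 and a median of 0.08. Pde1c, the calmodulin-activated phosphodiesterase of olfactory cilia, had the lowest difference of that list, -0.25 (SE 0.09), with all occluded arrays below all contralateral ones, as in 3.24% of all probe sets. The kinases Camk2a and Camk4 were at 0.06 (SE 0.08) and -0.07 (SE 0.12), and Ppp3ca, the catalytic subunit of calcineurin, at 0.15 (SE 0.09). Of 13 other IQ motif proteins 0 passed, with 7 above 0 and a median of 0.05. Nrgn, or neurogranin, was at 0.09 (SE 0.10) and Gap43, a calmodulin-binding protein of growing axons, at -0.01 (SE 0.11).

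Around Lrrc3b, 0 of 43 measured leucine-rich repeat membrane proteins passed in either direction, with 31 above 0 and a median of 0.07. They ran from -0.25 for Elfn2 to 0.43 for Slitrk6. The synaptic adhesion proteins Lrrtm1 and Slitrk1 were at 0.02 (SE 0.14) and 0.13 (SE 0.20), and the Nogo receptor partner Lingo1 at 0.15 (SE 0.11). Over all 137 pathway genes the occluded arrays lay entirely below the contralateral ones in 2, Pde1c and Lingo2, or 1.46%, against 3.24% of all probe sets, and entirely above them in 14, or 10.2%, against 7.49% of all probe sets. Without occluded replicate 1 the list medians were 0.018 for the Ras regulators, 0.042 for the diacylglycerol enzymes, 0.027 for the calmodulin-linked genes, 0.014 for the IQ motif proteins and 0.0090 for the leucine-rich repeat proteins. Centring each array on its median turned the sign of the list medians for the Ras regulators, the calmodulin-linked genes, the IQ motif proteins and the leucine-rich repeat proteins, which then ran from -0.033 to -0.0026.

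**Figure D4:**
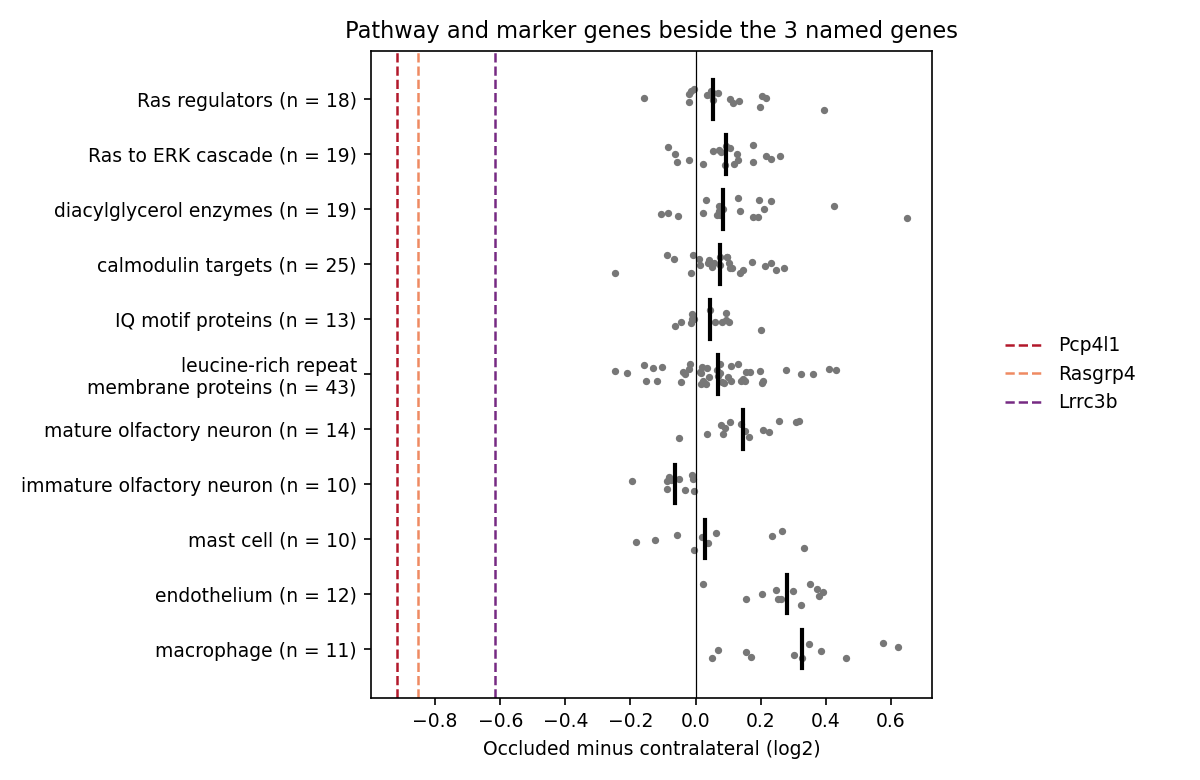
Difference between the sides (horizontal axis, occluded minus contralateral, log2) of each measured gene in the pathway lists and in part of the marker lists (grey points, with the list median as a black bar). The marker lists drawn are those of mature and immature olfactory neurons, mast cells, endothelium and macrophages. Dashed lines mark the 3 named genes. No gene of these lists reaches the difference of Lrrc3b, -0.62, on the lower side.

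In bulk tissue, fewer cells of a type and less RNA per cell cannot be told apart, so the markers of the cells that could hold these transcripts are given beside them. Of 14 measured markers of mature olfactory neurons, 13 lay above 0 and 0 passed, with a median difference of 0.15. Their mean level ran from 11.09 to 11.28 over the occluded arrays and from 10.97 to 11.07 over the contralateral arrays. Relative to that mean in each array, the differences were -1.07 (SE 0.14) for Pcp4l1, -1.004 (SE 0.08) for Rasgrp4 and -0.77 (SE 0.12) for Lrrc3b. The marker mean was higher on the occluded side, so its subtraction lowered the difference of every gene by the same amount. A negative difference thus became larger in size by construction, and nothing is read from that. On the same scale Pcp4 was at 0.17 (SE 0.15), Rasgrp1 at -0.01 (SE 0.07), Rasgrp2 at -0.07 (SE 0.07), Rasgrp3 at 0.00 (SE 0.12) and Lrrc3 at -0.14 (SE 0.07). The SEs on this scale come from the pooled SD of the sides and not from limma, so they are not comparable with the earlier ones. All 10 measured markers of immature neurons lay below 0, with a median of -0.06, and Elavl4 was the lowest at -0.19 (SE 0.09). That count rested on single arrays, since 4 of the 10 lay above 0 without occluded replicate 2 (median -0.020) and 4 without contralateral replicate 3 (median -0.039), while centring the arrays gave a median of -0.14. Without occluded replicate 1 the medians were 0.096 for the mature and -0.070 for the immature neurons.

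Mast cell markers are set beside Rasgrp4. Of 10 measured, 6 lay above 0 and 4 below, 0 passed, and their mean level ran from 5.90 to 5.93 on the occluded side and from 5.83 to 5.90 on the contralateral side. The level of 6 of them was at or under the median of the genes not expected in nasal tissue, among them Cpa3, the mast cell carboxypeptidase, at 4.61, and Ms4a2, a subunit of the IgE receptor, at 3.50. Kit, the stem cell factor receptor, had a mean of 9.70 and a difference of 0.04 (SE 0.12). The differences of the list ran from -0.18 (SE 0.16) for Fcer1a to 0.33 (SE 0.13) for Hdc. For Hdc all occluded arrays lay above all contralateral ones, as in 7.49% of all probe sets. Markers of T cells, known for Rasgrp1, had a median difference of 0.01 over 9 genes, those of B cells 0.00 over 7 and those of platelets 0.06 over 7. Without occluded replicate 1 these medians were -0.021, -0.0046 and -0.052, and that of the mast cell markers was 0.028, against 0.029 with it.

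Markers of some other cells lay higher on the occluded side. All 12 endothelial markers and all 11 macrophage markers lay above 0, with medians of 0.28 and 0.33 and 0 past the test, and without occluded replicate 1 these medians were 0.15 and 0.13. The mean level of the macrophage markers ran from 8.01 to 8.52 on the occluded and from 7.72 to 7.97 on the contralateral side. Of 7 supporting cell markers 3 lay above 0, with a median of -0.04, and of 11 olfactory bulb markers 8 lay above 0, with a median of 0.10. These medians were -0.051 and 0.022 without occluded replicate 1. The part of these cells in the differences of the 8 genes was not tested.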

How the data were processed

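Expression was measured in 6 arrays, grouped by their titles into 3 of the occluded and 3 of the contralateral side. The authors deposited log2 values, which per the labels come from a core-gene RMA run in Expression Console. The base of the logarithm was read from the range of the values; software version and genome build are not given in the sources used here. As a method RMA makes arrays alike and summarises probes, which can shrink broad differences.

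The platform annotation gave 1 gene symbol to 14996 of the 23332 probe sets, several to 1019 and none to 7317; 14941 of the single symbols matched RefSeq by Entrez identifier. Two-sided tests came from limma (version 3.58.1, with R 4.3.3) by lmFit and eBayes without a replicate block, with p-values Benjamini-Hochberg adjusted over all probe sets at 0.05. An exact permutation test of 3 against 3 arrays cannot reach that threshold and was not used. Lists were described by counts and medians, with no set test. Members and lists were chosen with earlier results of these data known. Named genes were the 8 members, the 5 genes most like each of Pcp4l1, Rasgrp4 and Lrrc3b, landmark genes of each pathway list, and list members with the lowest or highest difference; Lingo2, and marker genes other than those extremes, were named after their values were seen. Not every gene so taken is printed, and list genes without a probe set of 1 symbol were not used. The alternatives were leaving out each array, the replicate number as a fixed or random block, 3 other scalings, filters on probe sets, other variance models and, added after seeing the data, subtraction of the mature neuron markers. Scanner files were not used here; arrays have no read depth.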

Additional observations from a re-analysis of the deposited data

How the results depend on the processing

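Pcp4l1, Rasgrp4 and Lrrc3b stayed negative under every alternative run, from -1.07 to -0.82, from -1.004 to -0.77 and from -0.77 to -0.50, and so did their gaps to the paralogs, from -1.42 to -1.06, from -1.01 to -0.95 and from -0.74 to -0.55. Rasgrp4 moved by more than its spread only relative to the mature neuron markers (-1.004), a setting chosen after seeing the data, under which Rasgrp1 (-0.0087), Rasgrp2 (-0.068) and Lrrc3 (-0.14) turned negative. Lrrc3 was also negative with centred arrays (-0.069), quantile normalization (-0.060) and cyclic loess (-0.068), and ran from -0.029 to 0.074 as single arrays were left out; Rasgrp1 ran from 0.079 to 0.22, Rasgrp2 from 0.039 to 0.16 and Rasgrp3 from -0.011 to 0.27. The causes were not tested, except that centring and leaving out arrays shift small values by construction. Subtracting the mature neuron markers lowers the difference of every gene by the same amount, also by construction. No paralog passed under any alternative. Calls over all probe sets were 0, but 1 when only probe sets with 1 symbol were tested (S100a5) and 0 to 1 as single arrays were left out; the 1, without contralateral replicate 2, was an unnamed probe set with a mean of 5.01.

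With the replicate number as a block 0 probe sets were called (1271 at an unadjusted p under 0.05), and the differences were the same, with SEs of 0.13, 0.12 and 0.14 for Pcp4l1, Rasgrp4 and Lrrc3b. Deviations of arrays with the same number correlated at 0.01, 0.17 and -0.04, and those of arrays with different numbers at -0.17 to 0.15. With 3 arrays a side these values cannot decide whether the numbers pair the arrays, and the main fit did not pair them. Rasgrp2 was below the limit of the filter on low probe sets, and the gaps were not run with a random block. Of 136 list medians under alternatives, 11 moved by more than their spread. Averaging all probe sets of a gene changed nothing, since each had 1.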
